A study of Mus musculus with 8 samples.

Results

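Axon guidance genes of the semaphorin, ephrin, Slit and netrin families were examined across the 8 arrays of a mouse heart study. They were chosen by symbol alone: the semaphorins (Sema) with their plexin (Plxn) and neuropilin (Nrp) receptors, the ephrins (Efna, Efnb) with the Eph receptors (Epha, Ephb), the Slit ligands with the Robo receptors, and the netrins (Ntn) with the Unc5 receptors. The rule found 66 genes among the 19057 genes with a named probe. It took the brightest probe of each gene, by mean intensity over the 8 arrays. Of the 66, 41 were detected on at least 1 array, 20 on all 8 and 25 on none. A further 4 genes of these families, Ephb2, Ntn1, Robo3 and Sema5b, had no named probe and are not analysed here.

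These families were first described as cues that steer growing axons, and they also act between the cells of vessels, heart and mesenchyme. Secreted class 3 semaphorins bind neuropilins paired with plexins, while other semaphorins are held in the membrane and bind plexins directly. Ephrins are membrane-bound and signal in both directions when they meet an Eph receptor on a neighbouring cell. Slits are secreted and act through Robo receptors, and netrins through Dcc, neogenin and the Unc5 receptors. In the embryonic heart, semaphorin, plexin and neuropilin genes are known for shaping the outflow tract and vessels, and Slit and Robo genes for the pericardium and venous inflow.

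The study measured RNA from E12.5 mouse embryos of a mixed C57 background, with the PDGF receptor genes Pdgfra and Pdgfrb deleted or their pathway stimulated in the epicardium, the cell layer that covers the heart. Its design compares control with knockout hearts, and untreated with knockout or growth factor treated epicardial cultures. The 2 heart arrays held control (wild type) hearts and hearts with an epicardium-specific knockout of both receptors, each without the conotruncal region and pooled from 3 hearts. The 6 culture arrays held epicardial cells that grew out of E12.5 hearts for 3 days and were kept for 2 more days after the hearts were removed. Each culture array was a pool of at least 3 cultures.

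The culture groups were a wild type control culture, a culture from receptor knockout hearts with no treatment named, and a vehicle culture, of wild type cells kept in vehicle over 2 days. The control culture also carries a vehicle label, so 2 untreated cultures exist, called here the control culture and the vehicle culture. Wild type cultures received PDGF-BB, which binds both receptors, at 20 ng/ml for 12 h or for 24 h. A last one received the same dose of PDGF-BB together with TGF-β1 at 10 ng/ml and bFGF at 25 ng/ml over 2 days and is called the 3-factor culture. Which driver makes the knockout specific to the epicardium is a detail the sources used here do not give. For the control and knockout cultures the source label names a heart, but the title and the design text say culture, and this was followed.

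Levels are background-corrected, quantile-normalized intensities on the log2 scale, so a difference of 1 is 2-fold. A gene was detected on an array where its detection p was under 0.01, and measured in a comparison where it was detected on at least 1 of the 2 arrays. It was called higher or lower where the levels differed by at least 1 and the brighter array detected it. Where the dimmer array did not detect it, the fold is the smallest that the lowest detected level there (5.17 to 5.61 across arrays) allows. Each group had 1 array, so a difference between 2 arrays has no test. The only p-values are limma's, fitted with both untreated cultures as replicates of one group and hence on 1 residual degree of freedom, or on 2 where the PDGF-BB cultures are taken as a second group. Probes differ in brightness, so a level is compared across arrays and never between genes.

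On these arrays Pdgfra had a level of 7.43 in control and 5.80 in knockout hearts, and of 11.61 in the control, 10.49 in the knockout and 10.21 in the vehicle culture. Pdgfrb was not detected in knockout hearts and dim elsewhere, at 5.62 to 6.99, and the place of either probe relative to the deleted part is not known here. Endothelial markers were detected for 13 of 14 genes in both hearts, with summed linear levels of 21690 and 22160. In the cultures 4 to 8 of the 14 were detected, with sums of 904.4 to 1333, and Pecam1, Cdh5, Tie1, Cldn5 and Sox18 were detected in no culture. Epicardial markers summed to 4385 and 4431 in the hearts, 20410 to 40440 in 5 of the cultures and 7366 in the 3-factor culture, and the epicardial marker Tbx18 was detected only with PDGF-BB at 24 h. Macrophage markers summed to 1854 and 2123 in the hearts and 18200 to 65580 in the cultures, highest in the knockout culture. Neuronal and Schwann cell markers were near absent, with at most 1 gene of either list detected on any array. In bulk RNA, fewer cells of a type and less RNA per cell cannot be told apart.

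The guidance genes were detected about as often as other genes. At least 1 array detected 62.1% of the 66 and 56.2% of all genes, and all 8 arrays detected 30.3% and 38.2%. Each array detected 27 to 30 of the 66. Both neuropilins, 12 of 19 semaphorins, 5 of 9 plexins, 6 of 8 ephrins and 8 of 13 Eph receptors were detected on at least 1 array. So were 2 of 3 Slits, 2 of 3 Robo genes, 2 of 5 netrins and 2 of 4 Unc5 receptors. The genes detected on no array were Efna2, Efna3, Epha5, Epha6, Epha8, Epha10, Ephb3, Ntn5, Ntng1, Ntng2, Plxna1, Plxna3, Plxna4, Plxnb3, Robo2, Sema3c, Sema3d, Sema3g, Sema4c, Sema4f, Sema4g, Sema6c, Slit1, Unc5a and Unc5d.

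**Figure D1:**
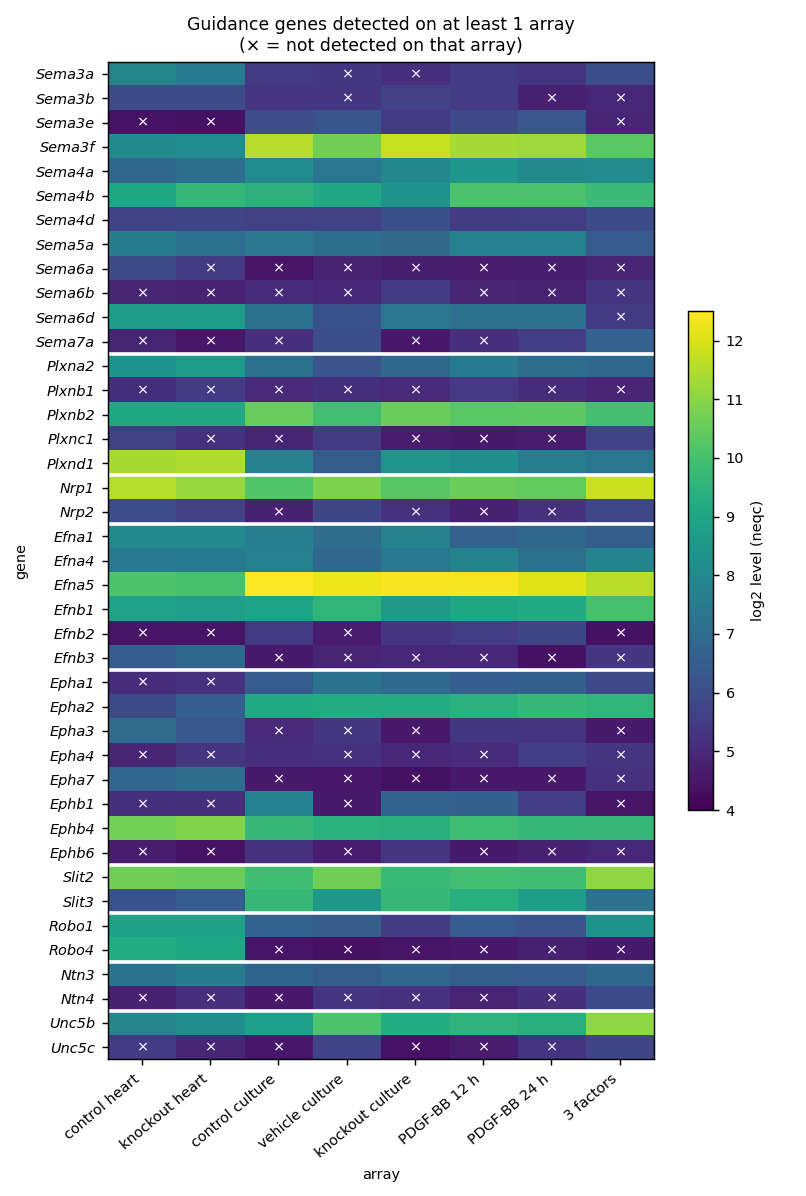
Log2 level (colour, scale at the right) of the 41 guidance genes detected on at least 1 array, with 1 row per gene and 1 column per array; white lines part the families and a cross marks a gene not detected on that array. Robo4, Efnb3 and Epha7 are detected in both hearts and in no culture, while Sema3e, Epha1 and Ephb1 are detected in cultures and in neither heart.

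Among the 20 genes detected everywhere, the netrin Ntn3 varied least over the 6 cultures, with levels of 6.43 to 6.83. The receptors Epha2 (9.19 to 9.70) and Ephb4 (9.33 to 9.86) and the membrane semaphorin Sema4d (5.48 to 6.09) also kept a narrow range. The widest ranges were those of the Slit receptor Robo1, from 5.47 in the knockout culture to 8.33 in the 3-factor culture, and its ligand Slit3, from 7.16 to 9.71. The netrin receptor Unc5b came next, from 8.79 in the control to 11.04 in the 3-factor culture.

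The first comparison sets untreated epicardial cultures beside the whole heart, both as bulk RNA, so a difference is not assigned to a cell type. Sema3f, Efna5, Epha2 and Slit3 were higher in both untreated cultures, by 2.15 to 3.57 on the log2 scale. Robo4, Plxnd1, Sema3a, Epha7 and Robo1 were among those lower in both. In the vehicle culture 8 of 34 measured guidance genes were called higher than in the control heart and 12 lower, or 23.5% and 35.3%. Over all 9656 measured genes the shares were 16.1% higher and 15% lower. The median size of the difference was 1.25 for the guidance genes and 0.61 for all measured genes. With the control culture in its place, 9 were higher and 13 lower of 36 measured, where 20.2% of all genes were higher and 16.5% lower.

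Among secreted semaphorins, Sema3f, a ligand of neuropilin 2, had levels of 8.06 and 8.13 in control and knockout hearts. It reached 11.54 in the control and 10.67 in the vehicle culture. Every culture lay above both hearts, and the difference from the control heart was 3.48 and 2.61. Sema3a, a ligand of neuropilin 1, went the other way, with 7.88 and 7.46 in the hearts, 5.46 in the control culture and no detection in the vehicle culture, at least 5.55-fold lower there. Sema3e, which binds Plxnd1 without a neuropilin, was detected in neither heart and had levels of 6.02 in the control and 6.29 in the vehicle culture, at least 1.46-fold and 1.76-fold above the control heart. Sema3b was dim, with 5.96 and 5.99 in the hearts and at most 5.68 in a culture.

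Of the membrane semaphorins, Sema6d was lower in culture, with 8.71 and 8.65 in the hearts against 7.25 in the control and 6.15 in the vehicle culture. Sema6a was detected only in the control hearts, at 5.98. Sema6b was detected only in the knockout culture, at 5.51. Sema4a was called higher in the control culture alone, at 8.14 against 6.84 in the control heart, and the vehicle culture had 7.35. Sema7a, which is tethered to the membrane by a lipid anchor and binds integrins and Plxnc1, was not detected in the hearts and had 6.03 in the vehicle culture.

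The semaphorin receptors split. Plxnd1, known from endothelial cells, had levels of 11.39 and 11.48 in the hearts, 7.77 in the control and 6.52 in the vehicle culture. It was thus 12.3-fold and 29.1-fold lower in the 2 untreated cultures. Plxna2 was lower too, at 8.36 in the control heart, 7.15 in the control and 6.19 in the vehicle culture. Plxnb2 pointed upward, with 9.09 in the control heart, 10.51 in the control and 9.93 in the vehicle culture, and only the first difference was called. Nrp1, which also serves as a VEGF co-receptor, had 11.56 in the control heart, 10.19 in the control and 10.83 in the vehicle culture. Nrp2 was dim, with 6.02 and 5.69 in the hearts and 5.77 in the vehicle culture. In the control culture it was not detected and was called lower than in the control heart. A further Nrp2 probe pointed the other way, with 5.52 in the control culture and no detection in the hearts or the vehicle culture. Plxnb1 was detected once, at 5.41 with PDGF-BB at 12 h, and Plxnc1 on 3 arrays at 5.43 to 5.71.

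Among ephrins, Efna5 was higher in culture, with 10.12 and 10.04 in the hearts and 11.60 to 12.49 over the cultures, none of which reached down to the hearts. Efnb3 was detected in both hearts, at 6.47 and 6.86, and in no culture. Efnb1 had 8.91 and 8.79 in the hearts and 8.60 to 10.04 in the cultures, and Efna4 7.42 and 7.49 against 6.85 to 7.84, so both overlapped. Efna1 had 8.06 in the control heart, 7.65 in the control and 7.04 in the vehicle culture, and the last difference, -1.02, lay just past the rule of size.

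Among Eph receptors, Epha2 had 5.90 and 6.53 in the hearts and 9.19 to 9.70 in the cultures, 9.81-fold and 10.1-fold above the control heart in the 2 untreated ones. Epha1 was detected in every culture, at 5.88 to 7.23, and in neither heart. Ephb4, the partner of Efnb2 in the sorting of arteries and veins, was 10.74 and 10.92 in the hearts and 9.33 to 9.86 in the cultures. Epha7 was detected only in the hearts, at 6.78 and 7.04. Epha3 was 7.03 and 6.32 in the hearts and at most 5.39 in a culture that detected it. A further, dimmer Epha3 probe differed by only -0.35 between the vehicle culture and the control heart, against -1.64 for the brightest. Epha4, at 5.18 and 5.55, and Ephb6, at 5.25 and 5.30, were each detected in 2 cultures only.

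The Slit pathway divided between its members. Slit3, whose loss in the mouse is known for causing diaphragmatic hernia, was 6.14 and 6.48 in the hearts, 9.71 in the control and 8.53 in the vehicle culture, or 11.9-fold and 5.22-fold above the control heart. Slit2 was 10.67 and 10.55 in the hearts, 9.89 in the control and 10.65 in the vehicle culture, and neither difference of its brightest probe was called. Further, dimmer Slit2 probes, designed on cDNA clones, had 7.73, 7.09, 6.49 and 5.85 in the control heart. In the same order they had 4.61, 5.57, 4.65 and 5.05 in the control culture and 6.81, 7.21, 5.57 and 5.42 in the vehicle culture. Robo1 was 8.87 and 8.85 in the hearts, 6.71 in the control and 6.57 in the vehicle culture, 4.48-fold and 4.93-fold lower. A further, dimmer Robo1 probe, designed on a cDNA clone, did not share that difference in the vehicle culture, where it was 0.23 higher. In the control culture that probe was not detected, at 4.71 against 5.67 in the control heart. Robo4, an endothelial Robo, was 9.27 and 9.03 in the hearts and detected in no culture, at least 17.2-fold lower in the control and 14.5-fold lower in the vehicle culture. All 13 measured endothelial markers and 12 of 13 cardiomyocyte markers were lower in the vehicle culture than in the control heart as well, while 9 of 10 macrophage and 9 of 10 epicardial markers were higher. Their part in the differences between culture and heart was not tested.

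Of the netrin group, Ntn3 was 7.25 and 7.59 in the hearts and 6.43 to 6.83 in the cultures, with no difference called. Unc5b, a netrin receptor of endothelial cells, was 7.87 and 8.18 in the hearts, 8.79 in the control and 10.08 in the vehicle culture, and only the vehicle culture passed the rule of size. Unc5c was detected in the vehicle and 3-factor cultures, at 5.71 and 5.76. Ntn4, a netrin of basement membranes, was detected only in the 3-factor culture, at 5.90.

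**Figure D2:**
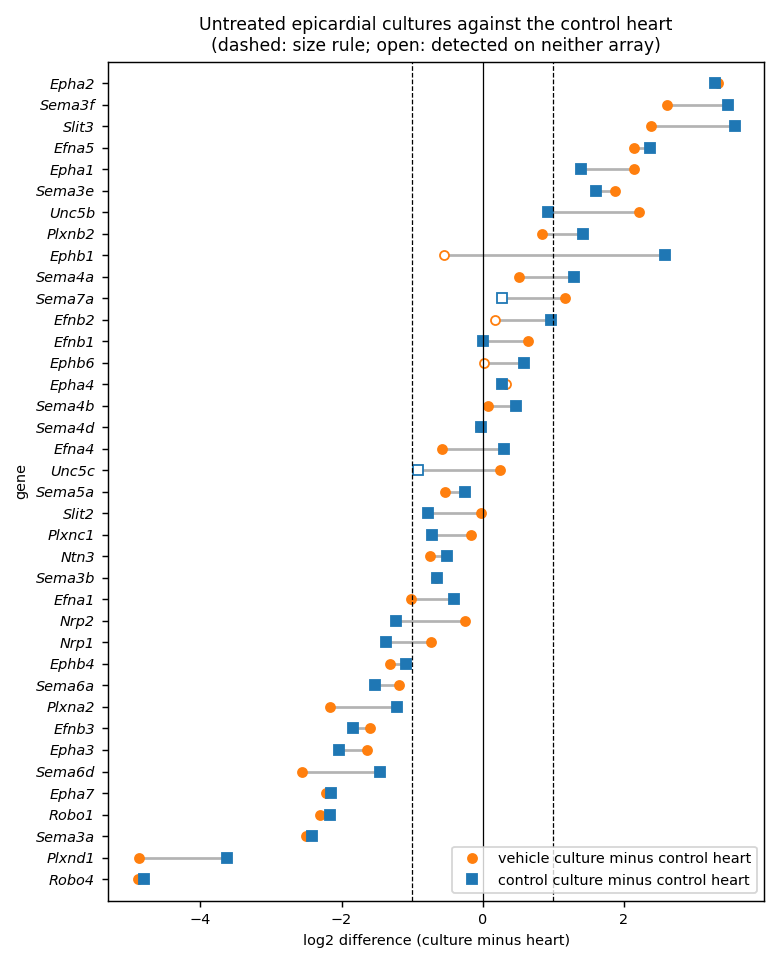
Log2 difference of each untreated epicardial culture from the control heart (x axis) for every guidance gene detected on at least 1 of the 3 arrays (y axis); circles are the vehicle culture, squares the control culture, open symbols a gene detected on neither array of the pair, and dashed lines the rule of size. Epha2, Sema3f, Slit3 and Efna5 lie past the right line with both cultures, and Robo4 and Plxnd1 lie farthest to the left.

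The 2 untreated cultures show how far such cultures differ with no knockout or added ligand. Ephb1, Plxnd1, Sema6d and Slit3 were lower and Unc5b and Unc5c higher in the vehicle than in the control culture, 6 of 33 measured. With the arrays centred on their medians in place of quantile normalization, 4 were lower and 4 higher. Over all measured genes 3.37% were higher and 7.34% lower. The median size of the difference was 0.62 for the guidance genes and 0.37 for all genes. Ephb1, a receptor of B-type ephrins, differed most: its level was 7.77 in the control culture and it was not detected in the vehicle culture, at least 5.12-fold lower. These 2 arrays lie in different sets of 4 that the authors had normalized separately: hearts, vehicle and 3 factors in one, the remaining cultures in the other. Set and culture cannot be told apart here. The erythroid marker sum was 867.9 in the control and 14760 in the vehicle culture, with 4 of 5 measured genes higher in the second. Of the other lists, 5 of 6 smooth muscle genes were higher in the vehicle culture. Lower there were 2 of 10 macrophage, 2 of 9 fibroblast and 1 of 8 endothelial genes and the 1 neuronal gene measured. Of 8 cardiomyocyte genes 5 were lower and 1 was higher, and of 10 epicardial genes 3 were higher and 2 lower. Their part in these differences was not tested. For the comparisons below, the untreated culture of the same set is the reference, and counts against the other one are given beside it.

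Between knockout and control hearts, none of 30 measured guidance genes was called by its brightest probe. Over all measured genes 0.202% were higher and 0.438% lower, so a count of 0 among 30 is near the background. A further, dimmer Nrp1 probe did pass the rule of size, at 8.47 in knockout against 9.55 in control hearts (-1.08), with -0.37 for the brightest. The median difference of the guidance genes was 0.00, with a median size of 0.25, against 0.16 for all measured genes. Sema4b, a membrane semaphorin, had the highest difference, 0.66, with levels of 8.99 and 9.65, followed by Epha2 with 0.63. Epha3 had the lowest, -0.71, with 7.03 and 6.32. Robo1, Efna1 and Plxnb2 differed by 0.02 or less in size. The endothelial and cardiomyocyte marker lists had no called gene in these hearts either.

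The knockout culture asks the same of the outgrown epicardial cultures, in which macrophage markers were detected too. Robo1, Sema4b and Ephb1 were lower than in the control culture, and no guidance gene was called higher, of 30 measured. That is 10.0% lower, where 2.29% of all measured genes were lower and 1.89% higher. The median difference of the 30 was -0.08, with a median size of 0.28 against 0.24 for all genes. Robo1 alone was lower than both untreated cultures, 1 of 34 measured, a rule that 1.13% of all genes met; 1.28% were higher than both, and no guidance gene was.

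Robo1 (Entrez gene 19876) stood at 5.47 in the knockout culture, 6.71 in the control and 6.57 in the vehicle culture. The untreated pair lay close together and the knockout culture was 2.35-fold below the first and 2.14-fold below the second. Both PDGF-BB cultures, at 6.43 and 6.24, were near the untreated ones. Against the untreated group the difference was -1.17, with a limma adjusted p of 1, so it did not pass the test across all genes. The difference from the control culture was below the rule of size without background correction (-0.82), in the authors' processed values (-0.87) and in the mean over both Robo1 probes (-0.65). The further Robo1 probe was detected in neither the knockout nor the control culture.

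Sema4b was 8.35 in the knockout, 9.46 in the control and 9.07 in the vehicle culture, and 10.10 and 10.05 with PDGF-BB. The knockout culture was the lowest and the PDGF-BB cultures the highest of the 6. The difference was 2.16-fold from the control culture and below the rule of size from the vehicle culture. In hearts the knockout difference of Sema4b had the opposite sign, 0.66. Ephb1 was 6.69 in the knockout culture, which lay between the control culture at 7.77 and the vehicle culture that did not detect it, so its direction turned with the reference: -1.07 against the control and 2.06 against the vehicle culture, a fold of at least 2.43 there.

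Against the vehicle culture, 8 of 32 genes were called, 5 higher and 3 lower, where 9.01% of all genes were higher and 5.81% lower. Plxnd1, Sema3f, Sema6d and Slit3 were higher there along with Ephb1, and Sema7a and Unc5c were lower along with Robo1. Of these, Plxnd1, Sema6d, Slit3, Ephb1 and Unc5c also differed between the untreated cultures. The macrophage marker sum was 65580 in the knockout culture against 30460 in the control, with all 10 genes detected in both, and the cardiomyocyte list had 4 of 13 genes detected against 8. All 10 macrophage genes were higher than in the vehicle culture. Their part in the Robo1 and Sema4b differences was not tested.

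**Figure D3:**
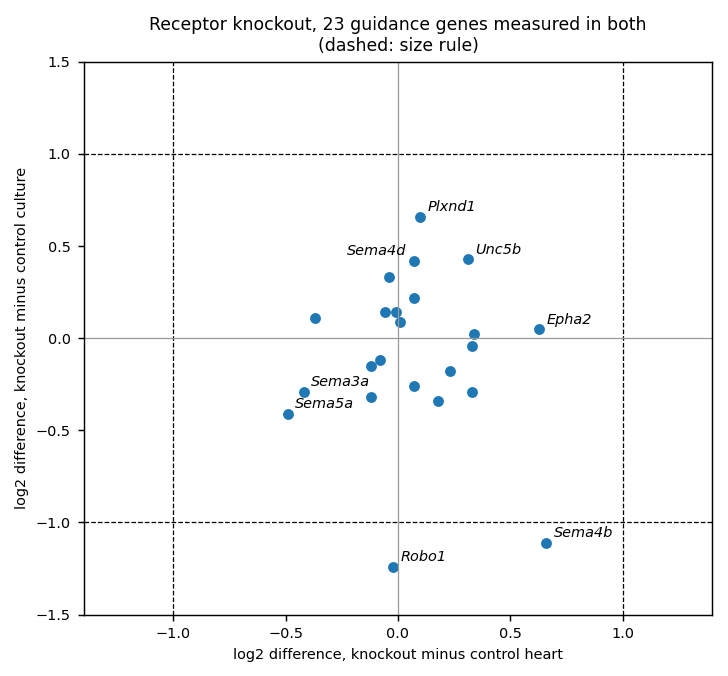
Log2 difference of knockout from control hearts (x axis) against that of knockout from control culture (y axis), 1 point for each of the 23 guidance genes measured in both; dashed lines mark the rule of size, and genes with a difference of at least 0.4 on either axis are named. Robo1 and Sema4b lie below the lower line, and no gene passes the rule in hearts.

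With PDGF-BB on its own, Ephb1 was the only guidance gene called against the control culture. It was lower at 12 h (-1.18) and at 24 h (-2.20), 1 of 31 measured genes or 3.23% at each time. Over all measured genes 0.258% were higher and 0.31% lower at 12 h, and 0.412% and 0.815% at 24 h. The median size of the difference was 0.22 and 0.31, against 0.16 and 0.20 for all genes. Ephb1 had levels of 7.77 in the control culture, 6.59 at 12 h and 5.57 at 24 h, and both values lay above the vehicle culture, where it was not detected. At 12 h the difference was just under the rule without background correction (-0.95) and in the authors' processed values (-0.97). No guidance gene differed from both untreated cultures in one direction, of 35 measured at 12 h and 34 at 24 h. For all genes those shares were 0.141% higher and 0.0101% lower at 12 h, and 0.0202% and 0.0505% at 24 h.

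Some differences stopped just short of the rule. Efna1, the ephrin that binds Epha2, was 6.66 at 12 h and 6.87 at 24 h, below both the control (7.65) and the vehicle culture (7.04). Its difference at 12 h was -0.997 from the control culture. Slit3 was 9.33 at 12 h and 8.72 at 24 h, between the control (9.71) and the vehicle culture (8.53), with -0.998 from the control at 24 h. Sema4b, at 10.10 and 10.05, lay above both untreated cultures, by 0.64 and 0.59 above the control. With the 2 PDGF-BB cultures taken as a group of 2, the Sema4b difference from the untreated group was 0.81, with a limma adjusted p of 1. Unc5b was 9.52 and 9.34, between 8.79 in the control and 10.08 in the vehicle culture.

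From 12 h to 24 h only Ephb1 was called, lower by 2.03-fold, of 31 measured, where 0.115% of all genes were higher and 0.251% lower. That difference was -0.67 without background correction and -0.72 in the authors' processed values. Ephrin ligand Efnb2, which can bind Ephb1 and Ephb4, was dim at 5.54 and 5.77, against 5.45 in the control culture and no detection in the vehicle culture. Against the vehicle culture 5 of 33 guidance genes were higher and 2 lower at 12 h, where 4.57% of all genes were higher and 2.38% lower. At 24 h 2 of 32 were higher and none was lower, near the shares of all genes, 3.88% and 2.02%. Plxnd1 was among them at both times, at 8.26 and 7.68 against 6.52. The 2 PDGF-BB comparisons share the control array. The erythroid marker sum was 803.9 at 12 h and 3272 at 24 h, against 867.9 in the control culture.

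The 3-factor culture asks what the combination of PDGF-BB, TGF-β1 and bFGF does. Robo1 was higher, and Slit3, Sema3e and Epha1 were lower than in the vehicle culture, of 29 measured genes. This is 3.45% higher and 10.3% lower, against 5.32% and 5.07% of all measured genes. Median centring gave 4 higher and 3 lower, and the authors' processed values 2 higher and 1 lower. The median size of the difference was 0.66 for the guidance genes and 0.30 for all. Against both untreated cultures Robo1 was higher and Sema3e and Slit3 were lower, of 34 measured, and over all genes 2.5% were higher and 2.99% lower than both. Read against those shares, 1 and 2 of 34 are near the background.

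The promoters of these 3 genes are printed because they were the guidance genes that differed from both untreated cultures. Each runs from 250 bases before to 50 bases after the start of the gene, from RefSeq on GRCm38.p6, 5′ to 3′ on the gene's strand. Capitals mark a SMAD box (CAGAC, or GTCTG on the other strand) and a CArG box, the site of serum response factor. The AP-1 site (TGANTCA) and the TEAD site (GGAATG) were searched too, on both strands.
Robo1 promoter, chr16:72662899-72663198, plus strand: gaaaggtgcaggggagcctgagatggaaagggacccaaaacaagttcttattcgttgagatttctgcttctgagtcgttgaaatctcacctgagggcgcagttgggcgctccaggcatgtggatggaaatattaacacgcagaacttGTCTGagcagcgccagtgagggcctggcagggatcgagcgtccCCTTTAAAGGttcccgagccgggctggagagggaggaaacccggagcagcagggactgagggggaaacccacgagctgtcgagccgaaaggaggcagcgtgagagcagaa
Slit3 promoter, chr11:35121206-35121505, plus strand: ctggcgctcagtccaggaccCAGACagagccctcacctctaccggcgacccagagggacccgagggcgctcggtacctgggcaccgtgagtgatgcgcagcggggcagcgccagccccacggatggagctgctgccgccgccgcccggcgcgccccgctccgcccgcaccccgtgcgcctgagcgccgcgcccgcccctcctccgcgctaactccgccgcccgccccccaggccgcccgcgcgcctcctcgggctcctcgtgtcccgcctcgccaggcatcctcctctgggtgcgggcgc
Sema3e promoter, chr5:14025026-14025325, plus strand: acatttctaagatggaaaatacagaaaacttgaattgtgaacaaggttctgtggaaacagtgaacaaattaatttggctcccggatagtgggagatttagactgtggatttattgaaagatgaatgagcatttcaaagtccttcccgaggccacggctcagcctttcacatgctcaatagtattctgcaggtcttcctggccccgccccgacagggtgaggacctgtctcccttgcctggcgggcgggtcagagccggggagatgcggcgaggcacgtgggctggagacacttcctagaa

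The Robo1 promoter held a SMAD box 103 bases and a CArG box 60 bases before the start, and Slit3 a SMAD box 230 bases before it. None of the 4 motifs was found in the Sema3e window. Of the 32851 promoters in the table, 49.6% held the SMAD box, 7.81% the AP-1 site, 14.7% the TEAD site and 1.63% the CArG box. Those shares are per promoter, whereas a guidance gene was counted if any of its promoters held the motif, so the 2 are not on the same unit. Among 58 guidance genes with a promoter there, 37 held the SMAD box, 3 the AP-1 site, 10 the TEAD site and 2 the CArG box. The 2 genes with a CArG box were Robo1 and Sema4d. GC content was 57.0% for Robo1, 78.3% for Slit3 and 50.7% for Sema3e, with a median of 52.7% over all promoters. The motifs were chosen with the values known, and a match in letters describes the sequence only.

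Robo1 was 8.33 in the 3-factor culture, against 6.57 in the vehicle and 6.71 in the control culture, 3.40-fold and 3.08-fold higher. It was the highest of the 6 cultures and below both hearts. Against the untreated group the difference was 1.70, with a limma p of 0.0052 and an adjusted p of 0.315. The further Robo1 probe was 6.16 against 5.90 in the vehicle culture, a difference of 0.27. Both probes were higher than with PDGF-BB at 24 h, by 2.09 and 1.28, but those arrays lie in different sets. The further probe was also 1.19 higher in the vehicle than in the control culture, where the brightest probe gave -0.14.

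Slit3 (Entrez gene 20564) was 7.16 in the 3-factor culture, 8.53 in the vehicle and 9.71 in the control culture, 2.58-fold and 5.86-fold lower. It was the lowest of the 6 cultures and above both hearts. The untreated cultures themselves lay 1.19 apart. A further Slit3 probe was 1.25 lower than in the vehicle culture. Against the untreated group the difference was -1.96, with a limma adjusted p of 0.438. Slit2, the other Slit detected, had its highest level here, 11.10, against 10.65 and 9.89 in the untreated cultures, and was called only against the second.

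Sema3e (Entrez gene 20349) was not detected with the 3 factors and had 5.47 to 6.32 in the other 5 cultures. It was at least 1.65-fold lower than in the vehicle and 1.37-fold lower than in the control culture, with a limma adjusted p of 0.527. The difference from the vehicle culture was below the rule of size without background correction (-0.82) and in the authors' processed values (-0.69). Its receptor Plxnd1 was 7.34, between 6.52 in the vehicle and 7.77 in the control culture. Epha1 was 5.88 with the 3 factors, 7.23 in the vehicle and 6.47 in the control culture, the lowest of the 6. A further Epha1 probe was 1.09 lower than in the vehicle culture, and the Epha1 difference was -0.99 without background correction and -0.88 in the authors' processed values.

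Receptors that stopped just short of the rule against the vehicle culture were Nrp1, by 0.999, and Unc5b, by 0.968. Nrp1 was 11.83 with the 3 factors, 10.83 in the vehicle and 10.19 in the control culture, above every other array. Unc5b was 11.04, against 10.08 and 8.79, likewise the highest of all 8 arrays. Both were called against the control culture, by 3.11-fold and 4.77-fold. The limma adjusted p was 0.554 for Nrp1 and 0.624 for Unc5b. A further Nrp1 probe was 1.24 higher than in the vehicle culture. Among ligands, Efna4 missed the rule by as little, at 7.84 against 6.85, while the control culture had 7.72. Sema7a was 6.67, against 6.03 in the vehicle culture and no detection in the control culture.

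**Figure D4:**
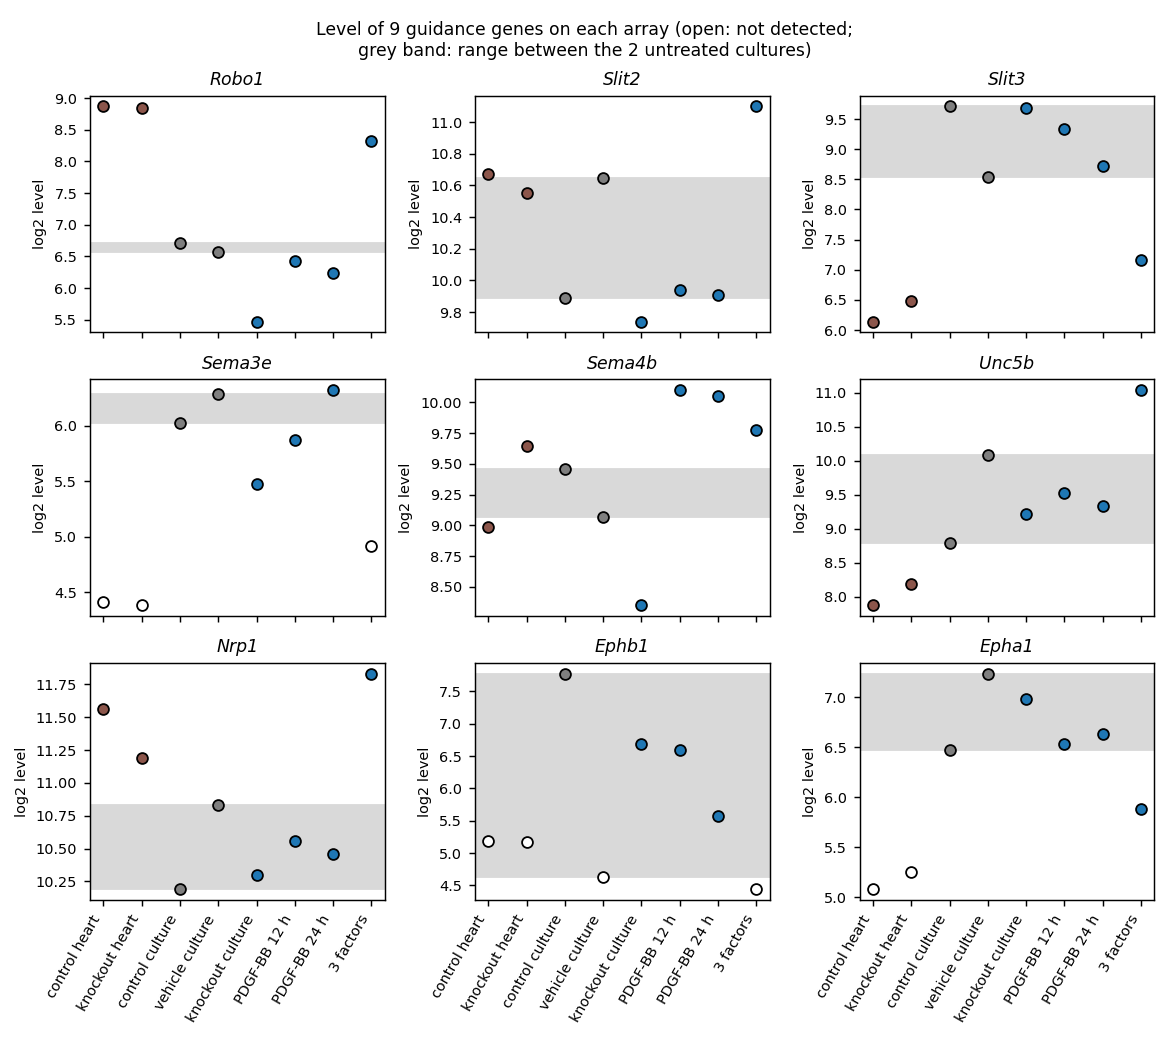
Log2 level (y axis, each panel on its own scale) of 9 guidance genes on the 8 arrays (x axis), with hearts in brown, untreated cultures in grey and the other cultures in blue; open points were not detected, and the grey band spans the 2 untreated cultures. With the 3 factors Robo1, Unc5b, Nrp1, Slit2 and Sema4b lie above the band and Slit3, Sema3e, Epha1 and Ephb1 below it, while the knockout culture lies below it for Robo1, Sema4b, Sema3e and Slit2.

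Against the control culture 16 of 34 guidance genes were called with the 3 factors, 9 higher and 7 lower, where 6.67% of all genes were higher and 10.2% lower. Those called against the control but not the vehicle culture included Efnb1 (2.16-fold higher), Slit2 (2.32-fold higher), Sema3f (2.29-fold lower) and Efna1 (2.21-fold lower). Sema6d was not detected with the 3 factors and at least 3.20-fold lower than in the control culture, where it was 7.25. The vehicle culture, at 6.15, lay between. Of 37 guidance genes detected in a culture, the 3-factor culture lay above both untreated cultures for 18, between them for 6 and below both for 13. That is 48.6%, 16.2% and 35.1%, against 34.4%, 32.4% and 33.2% of the 10249 genes detected in a culture. The same counts were 11, 13 and 13 for the knockout culture, or 29.7%, 35.1% and 35.1% against 32.7%, 35.2% and 32.1% of all genes. They were 12, 16 and 9 for PDGF-BB at 12 h, or 32.4%, 43.2% and 24.3% against 21.9%, 54.7% and 23.4%. At 24 h they were 7, 21 and 9, or 18.9%, 56.8% and 24.3% against 21.5%, 53.4% and 25.1%. These comparisons share the untreated arrays.

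**Figure D5:**
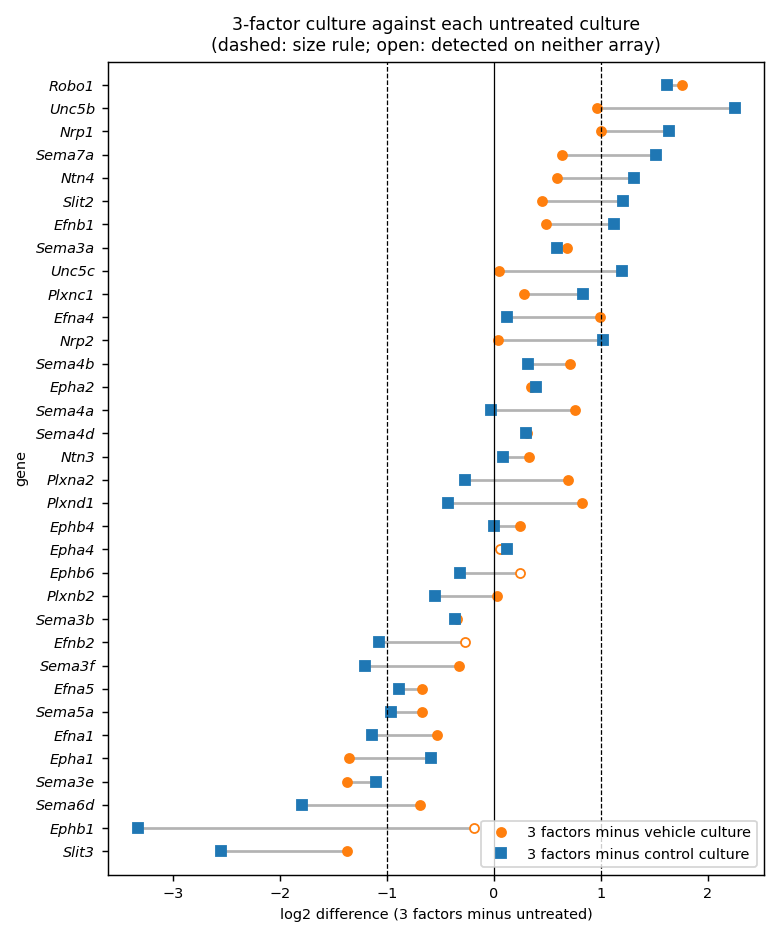
Log2 difference of the 3-factor culture from each untreated culture (x axis) for every guidance gene detected on at least 1 of the 3 arrays (y axis); circles are differences from the vehicle culture, squares from the control culture, open symbols a gene detected on neither array of the pair, and dashed lines the rule of size. Robo1 lies past the right line with both references and Slit3 and Sema3e past the left line with both.

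Adding TGF-β1 and bFGF to PDGF-BB can be set beside PDGF-BB alone at 24 h, although the exposure was 2 days against 24 h and the arrays lie in different sets. Nrp1, Plxnc1, Robo1, Sema7a, Slit2 and Unc5b were higher and Efnb2, Ephb1, Sema3e, Sema5a, Sema6d and Slit3 lower, of 33 measured. That is 18.2% in each direction, against 6.06% higher and 7.82% lower of all genes. The median size was 0.71 for the guidance genes and 0.39 for all. Robo1 differed most among the higher, by 4.25-fold, followed by Unc5b with 3.26-fold. Slit3 was 2.94-fold and Sema6d at least 2.97-fold lower. Sema5a, a membrane semaphorin, was 6.40 with the 3 factors, 7.72 with PDGF-BB, 7.07 in the vehicle and 7.36 in the control culture, the lowest of all 8 arrays. Plxnc1, at 5.71, was not detected with PDGF-BB and was at least 1.35-fold higher. Efnb2 was not detected with the 3 factors and was at least 1.15-fold lower. All 4 measured erythroid, 6 of 11 epicardial, 5 of 9 fibroblast and 2 of 10 macrophage markers were lower with the 3 factors in this comparison, and their part in it was not tested.

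The erythroid and epicardial markers differed in the same comparison with the vehicle culture. All 4 measured erythroid genes and 6 of 10 measured epicardial genes were lower with the 3 factors, and none of the 4 erythroid genes was detected there. The macrophage sum was 34210 against 18200 in the vehicle culture. The fibroblast list had 4 of 9 measured genes lower. Their part in the differences of Robo1, Slit3, Sema3e and Epha1 was not tested.

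Limma called no gene in any of the 4 contrasts of a culture with the untreated group, at an adjusted p under 0.05 after Benjamini-Hochberg adjustment over 10249 genes, so 0% of all genes and 0 of 37 guidance genes passed. With the PDGF-BB cultures taken as a group of 2 as well, limma called 23 genes (0.224%) for the 3 factors and none for the knockout or PDGF-BB. None of these was a guidance gene, and the smallest limma adjusted p of a guidance gene was 0.0747. By size alone, the differences from the untreated group of at least 1 were as follows. For the knockout they were 1.28 for Plxnd1, -1.17 for Robo1 and -1.02 for Sema7a. For PDGF-BB at 12 h Plxnd1 had 1.11, and at 24 h no guidance gene reached 1. For the 3 factors Robo1 had 1.70, Unc5b 1.61, Nrp1 1.32 and Sema7a 1.07. On the lower side Slit3 had -1.96, Ephb1 -1.76, Sema6d -1.24 and Sema3e -1.23.

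Other genes of these pathways were listed by role: 24 co-receptors and further receptors with a probe, 9 further ligands and 42 cytoplasmic effectors. In the knockout hearts 1 effector was called, the small GTPase Rnd3, of a family that binds plexins, with a difference of -1.36. In the knockout culture the receptors Cd72 (1.64), which binds Sema4d, and Sdc4 (1.08), a heparan sulfate proteoglycan, were higher, and the adhesion molecule Mcam (-1.22) was lower, of 17 measured. The ubiquitin ligase Pdzrn3 was lower (-1.85), of 31 effectors. Sdc4, at 9.82, lay between the control (8.73) and the vehicle culture (10.57). Against the vehicle culture 2 receptors were higher and 6 lower of 17, and 1 effector was higher and 3 lower of 31, with Cd72 again higher and Mcam and Pdzrn3 lower. With PDGF-BB no listed gene was called against the control culture, of 17 receptors and 5 ligands measured at each time and 31 effectors at 12 h and 32 at 24 h. Against the vehicle culture Cd72 was higher and Itgb1 and Sdc4 lower at both times, of 17 receptors. At 12 h 1 ligand was higher and 1 lower of 6, and 1 effector higher of 31. At 24 h no ligand or effector was called.

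With the 3 factors 4 of 17 receptors were higher than in the vehicle culture and 2 lower. Cd72 was higher by 3.22. Flrt2, a membrane protein that binds Unc5 receptors, was higher by 1.60, at 10.96 against 9.36 in the vehicle and 8.95 in the control culture. The proteoglycans Sdc3 (1.45) and Gpc1 (1.29), the latter known to bind Slits, were higher as well. Flrt1, a relative of Flrt2, and Met, the receptor of hepatocyte growth factor and a partner of plexins, were not detected with the 3 factors, at least 1.29-fold and 1.36-fold lower. Of 5 ligands the matrix protein Spon2 was lower (-1.17). Of 31 effectors Pdzrn3 (1.64) and Dpysl4 (1.19) were higher and Dpysl5 was lower, dim at 5.45 in the vehicle culture and not detected with the 3 factors, so no fold is given. The last pair comes from the family that relays semaphorin signals to the cytoskeleton. Against the control culture 8 of 17 receptors were higher, the same 4 with Itgb1, Cd44, Sdc4 and Mcam, and Flrt1 was lower, while Met was not called. Spon2, Dpysl4 and Dpysl5 were not called there, and of the effectors Pdzrn3 and Limk2 were higher and Tiam1 lower. Cd72 was 10.82 in the knockout and 10.55 in the 3-factor culture, then 9.19 in the control culture, 9.13 at 12 h and 8.82 at 24 h of PDGF-BB, and 7.34 in the vehicle culture. The macrophage marker sum put the 6 cultures in the same order, and its part in the Cd72 values was not tested.

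The netrin receptor Dcc and the neural adhesion molecules Nrcam, L1cam and Chl1 were detected on no array. Neogenin (Neo1), which also binds netrins, was detected on all 8, at 9.32 to 10.20. In the vehicle culture against the control heart, Srgap3, a GTPase activating protein that binds Robo, was at 8.66 against no detection. Reln, a secreted guidance protein, was 7.66 and 7.10 in the hearts and detected in no culture.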

How the data were processed

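Each of the 8 arrays held 1 RNA pool, so every group has 1 array, and the files show no depth beyond the 32.15% to 36.79% of 45281 probes detected per array. Per the submitters' processing notes the authors exported the data with BeadStudio 3.3. The deposited non-normalized file holds a bead intensity and a detection p-value per probe. The values that the authors processed further are linear intensity too, and their distributions are identical within 2 sets of 4 arrays, as quantile normalization leaves them. They served only as an alternative.

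Intensities were background-corrected with limma 3.58.1 in R 4.3.3 (neqc, offset 16, background taken from the detection p-values, quantile normalization over 8 arrays) and put on a log2 scale. Of the probes, 34885 had 1 symbol in the platform annotation, 18 had several and 10378 had none. The probe with the highest mean non-normalized intensity stood for its gene. Limma was fitted across all genes detected in a culture, with 1 residual and 5.14 prior degrees of freedom and Benjamini-Hochberg adjustment. Tables and plots were made in Python 3.11.15 (pandas 2.3.3, numpy 2.4.6, matplotlib 3.10.9). The calls and the fit were tested on simulated data.

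PDGF-BB and knockout cultures were set against the control culture, and the 3-factor culture against the vehicle culture, since those arrays share a set. The other untreated culture, the background correction, the normalization, the detection filter, the probe rule and the authors' values were varied. The members, lists and tests were chosen with earlier results of these data known. Values are given for the genes called in a culture or knockout comparison, but not on every array for each gene. The genes called only between culture and heart are named with ranges. The promoters are those of RefSeq on GRCm38.p6, and 58 of the 66 genes matched. The files name no genome build.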

Additional observations from a re-analysis of the deposited data

Results flagged for a closer look

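The knockout difference of Sema4b had opposite signs: 0.66 between the heart arrays, which did not pass the rule of size, and -1.11 between the culture arrays. The difference between these was not tested, since each rests on 2 arrays.

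The other results come from further probes of the guidance genes, which the report uses only as a check. They passed the rule of size in a comparison where the brightest probe of the gene did not. The comparison of the vehicle culture with the control heart was left out of this search. There, for example, a further Nrp1 probe had 7.85 against 9.55, with 10.83 against 11.56 for the brightest. A further Sema3b probe had 4.98 against 6.09, with 5.33 against 5.99 for the brightest. Further Slit2 probes were 2.20 and 1.64 higher in the vehicle than in the control culture, where the brightest probe gave 0.76. A further Nrp1 probe was 1.33 higher in the vehicle than in the control culture and -1.08 in knockout against control hearts, where the brightest probe gave 0.64 and -0.37. Another Nrp1 probe was 1.24 higher with the 3 factors than with vehicle, against 0.999 for the brightest. The further Robo1 probe was 1.19 higher in the vehicle than in the control culture, against -0.14.

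An Nrp2 probe had differences of -1.11 between the vehicle and control cultures and -1.48 between the 3 factors and PDGF-BB at 24 h, opposite in sign to the 0.98 and 0.59 of the brightest probe. It was detected only in the control, knockout and PDGF-BB cultures. A further Ntn4 probe was 1.26 higher with the 3 factors than with vehicle and 1.14 higher than with PDGF-BB at 24 h, against 0.59 and 0.71. One Sema3f probe differed by -1.04 between the 3 factors and PDGF-BB at 24 h, against -0.92, and another by -1.09 between the vehicle and control cultures, against -0.87.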

How the results depend on the processing

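In knockout hearts 0 guidance genes were called under all 6 alternatives run, and in the vehicle culture against the heart 15 to 22 were called, against 20. In the knockout culture 3 were called, 1 without background correction, 1 in the authors' processed values, 8 with the vehicle culture as reference and 1 against both untreated cultures, a rule added after seeing the data. For PDGF-BB at 12 h the count of 1 became 0, 0, 7 and 0 under the same 4 settings, and at 24 h it became 2 with the vehicle culture and 0 against both. From 12 h to 24 h it became 0 without background correction and in the authors' values. For the 3 factors the count of 4 became 2 without background correction, 7 with median centring and 16 with the control culture. The count of 12 against PDGF-BB at 24 h became 7, and that of 6 between the untreated cultures became 3, both without background correction. Ephb1 reversed with the vehicle culture as reference, to 2.06 in the knockout culture, 1.96 at 12 h and 0.94 at 24 h of PDGF-BB, where the vehicle array did not detect it. For other reversals the count was 0 of 270 values of called genes under the alternatives other than the reference. Part of this was fixed in advance. Detection p under 0.05 and no detection filter, with 48 values each, keep the same levels, so no sign could reverse there. Nor could it in the mean over probes for genes with 1 detected probe. Why the counts moved was not tested. No paired analysis was possible because each group has 1 array. The authors' values were not run across their 2 sets. Leaving out a replicate was not possible with 1 array per group, and signal near background limits the differences of dim genes.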

Other observations

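The accession kind of a probe went with the difference between the untreated cultures. Probes designed on cDNA clone sequences (813 detected) had a median vehicle minus control difference of 0.30, with 13.3% called higher and 1.60% lower. Probes designed on curated mRNA sequences (13898 detected) had a median of 0.00, with 3.48% higher and 7.48% lower. Among the guidance genes, the further probes of Slit2, Nrp1 and Robo1 that were higher in the vehicle culture are of the first kind. The brightest Slit3 probe is of that kind too and was -1.19, with -0.58 for its curated partner. The 2 cultures lie in different array sets, and set and culture cannot be told apart.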
